A study of Homo sapiens with 5 samples.

Results

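The 55 genes described here encode the proteins that license and fire replication origins and that act at the replication fork. They were listed by gene symbol and role, and were matched to 55 of the 64252 gene identifiers in the count table. All 55 had enough reads to be tested among 15341 genes. The RNA came from RPE-1, an immortalized human line derived from retinal pigment epithelium, 48 hr after transfection of siRNA with Lipofectamine RNAiMAX. There were 3 control libraries that received the ON-TARGET Control #1 siRNA (siCtrl, genotype WT in the labels) and 2 libraries that received an ON-TARGETplus pool of siRNAs against FAM53C (siFAM53C, genotype "FAM53C KD"), each at a labelled siRNA concentration of 5 µM. The comparison asked how the transcriptome of RPE-1 cells differed after FAM53C knock-down. The knock-down was transient, was made in 1 cell line and relied on 1 siRNA pool, so that effects of the pool on other transcripts cannot be told apart from those of FAM53C loss.

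In late mitosis and G1, the origin recognition complex together with CDC6 and CDT1 loads the MCM2-7 helicase onto DNA, which licenses each origin. At the G1/S transition the DBF4-dependent kinase CDC7 and cyclin-dependent kinases recruit CDC45 and the GINS complex to activate the helicase, after which polymerases, the PCNA clamp and its loader RFC, and the RPA complex copy the strands. Many of these genes are transcribed at the G1/S transition under the control of E2F factors and the RB family, the pathway through which cells commit to a new cycle.

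Library totals ranged from 19260124 to 25615415 counts. FAM53C was present at 60.9, 59.7 and 57.6 CPM (counts scaled to the size of each library) in siCtrl and at 14.2 and 22.3 CPM in siFAM53C, and fell by 1.71 on the log2 scale (SE 0.19, edgeR adjusted p = 0.00363). Its exons share 704 bases with genes on the opposite strand, among them CDC25C. The libraries were also separated by a feature other than the siRNA. Along the main principal component (39.8% of the variance), the scores of siCtrl replicate 3 (33.7) and of siFAM53C replicate 2 (44.9) were far from those of siCtrl replicates 1 (-31.5) and 2 (-47.4), with siFAM53C replicate 1 at 0.26. This division is called the library split below, with siFAM53C replicate 1 placed on the side of siCtrl replicates 1 and 2. Its score lay between the sides, so this placement was a choice, and all results by side rest on it. Results are also given within each side. The labels do not say what the split is. In the deposited table the columns of siCtrl replicate 3 and siFAM53C replicate 2 both end in the number 3. The table holds no siFAM53C column numbered 2, and all of its columns of counts were used here. The labels also do not say whether libraries of a condition came from separate cultures, so p-values measure only the spread between these libraries, which may be technical. Of the defining markers of pigment epithelium, RPE65, RLBP1 and TYR had too few counts to be tested and BEST1 and PMEL had mean levels under 1 CPM in both conditions, whereas MITF (40.0 CPM in siCtrl) and OTX2 (16.0 CPM) were present. Of the epithelial markers, KRT8 and KRT18 were abundant and KRT7 was at 8.05 CPM in siCtrl, but KRT19, EPCAM and CDH1 had too few counts to be tested. The mesenchymal markers VIM, FN1 and CDH2 were abundant, and the blood and endothelial markers listed were at or near 0.

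Transcripts of the replication genes were on the whole slightly lower after FAM53C knock-down, with a few of them distinctly so. Of the 55 genes, 44 (80.0%) had a log2 fold change below 0, where 48.2% of all tested genes did. Their median log2 fold change was -0.19, against 0.02 over all genes tested. Single genes of the 55 had standard errors between 0.10 and 0.26. The median of these was 0.13, against 0.20 over all genes, and the shares given for all genes are not matched for this. In the quasi-likelihood test of edgeR, adjusted over all genes by the Benjamini-Hochberg method, 6 (10.9%) fell, where 3.47% of all genes were called lower. These were ATAD2, FEN1, CLSPN, UHRF1, RFC1 and DBF4. None was called higher, where 0.489% of all genes were. At an unadjusted p under 0.05, 16 of the 55 were lower and 0 higher, where 10.5% and 6.61% of all genes were, and DESeq2 and limma-voom also called 0 higher. With library totals in place of TMM scaling factors, 37 of the 55 were below 0 and their median was -0.12, whereas the median of all genes moved to 0.09. In bulk RNA, fewer cells in S phase and less of each transcript per cell cannot be told apart.

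**Figure D1:**
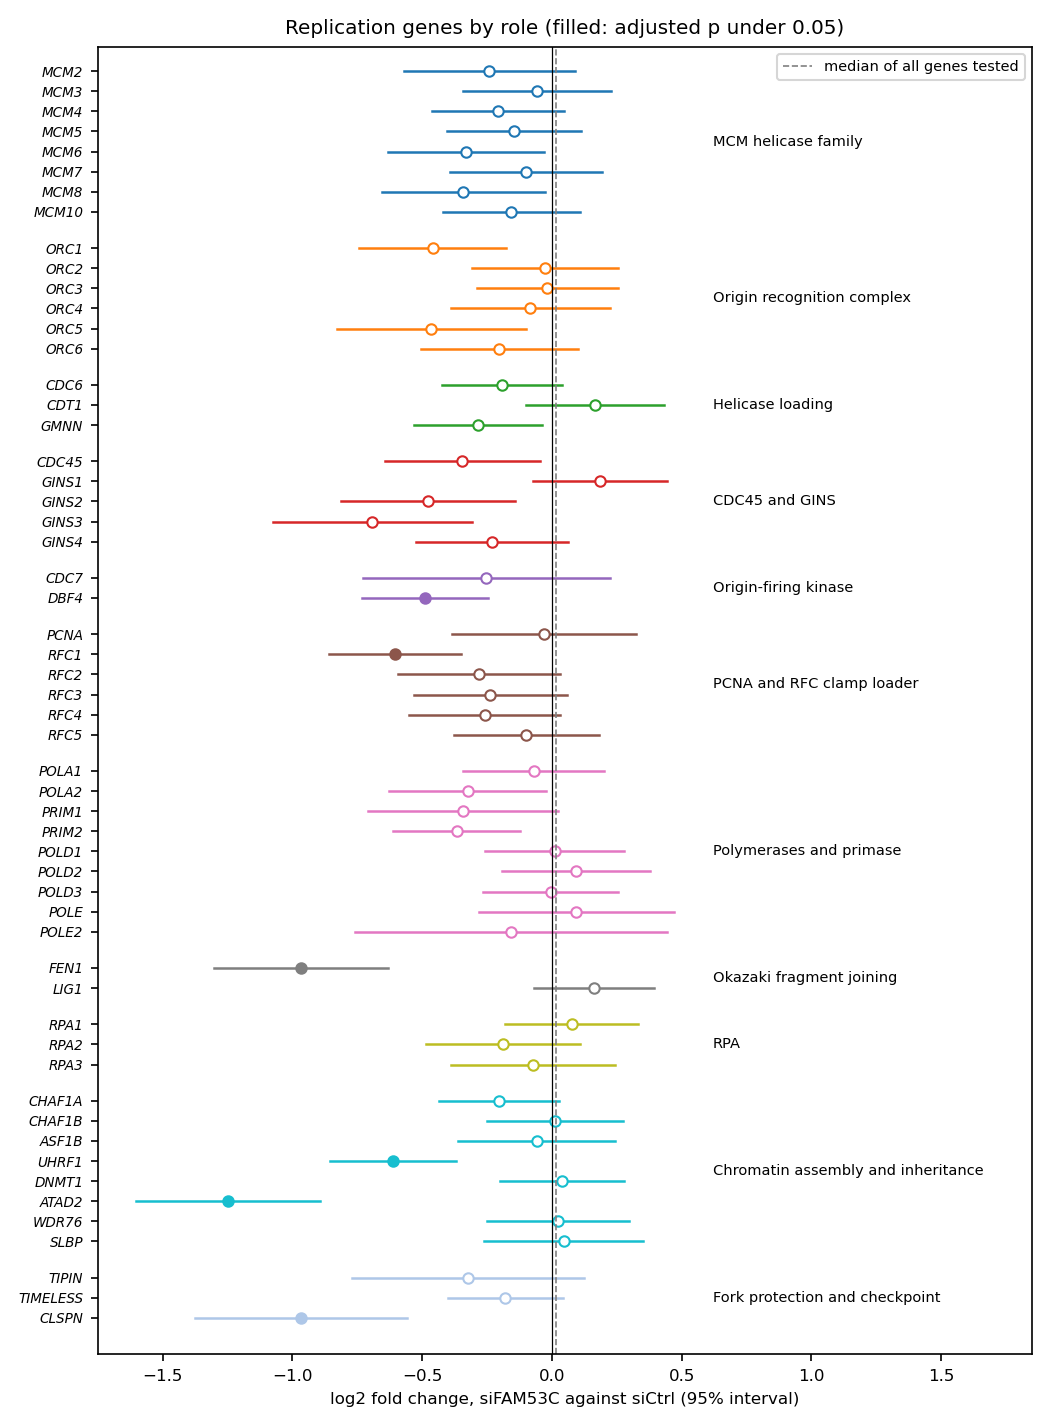
Log2 fold change in siFAM53C against siCtrl for each of the 55 replication genes, grouped and coloured by role, with 95% intervals from edgeR's fit to 5 libraries. Filled points mark the 6 genes with an adjusted p under 0.05, all of them left of 0, and the dashed line is the median of all genes tested (0.02).

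Within the libraries, every siFAM53C value lay below every siCtrl value for 29 of the 55 genes (52.7%), which was so for 18.8% of all genes. The opposite order held for 2 genes (3.64%), GINS1 and LIG1, against 16.7% of all genes. For the remaining 24 genes the conditions overlapped. The controls themselves differed. In siCtrl replicate 3, 38 of the 55 genes were below the mean of siCtrl replicates 1 and 2, with a median log2 difference of -0.14, against 0.0025 over all genes. On each side of the split taken alone, the median of the 55 genes was -0.23 for siFAM53C replicate 1 against siCtrl replicates 1 and 2, and -0.12 for siFAM53C replicate 2 against siCtrl replicate 3. Over all genes both medians were 0.01. The difference was below 0 on both sides for 36 genes, above 0 on both for 7 and of opposite sign for 12. With a term for the split in the fit, 15 of the 55 genes (27.3%) were called lower, where 10.7% of all genes were, and 0 higher, where 6.76% were. Beside the 6 genes named above, these were CDC45, GINS2, GINS3, MCM6, MCM8, ORC1, ORC5, POLA2 and PRIM2. The split was read from the same counts that this fit tests, so its adjusted p-values may be too small.

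**Figure D2:**
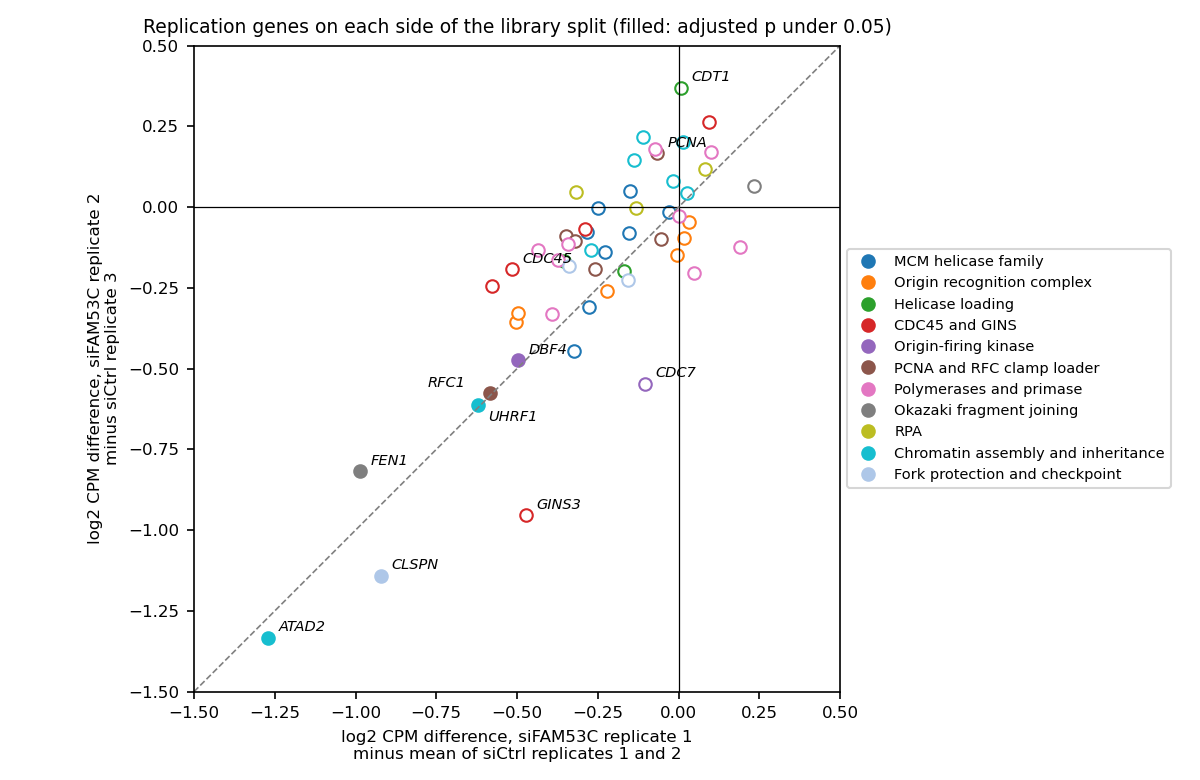
Difference in log2 CPM for each of the 55 replication genes between siFAM53C replicate 1 and the mean of siCtrl replicates 1 and 2 (horizontal) and between siFAM53C replicate 2 and siCtrl replicate 3 (vertical), coloured by role. Filled points are the 6 genes with an adjusted p under 0.05, all of which lie near the dashed line of equal differences. They were called in these same libraries, which favours genes whose libraries agree. In the lower left quadrant are 36 of the 55 genes.

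The 2 sides share no library, although all libraries were scaled together. Across the 55 genes, which are not independent replicates, the differences on the sides had a Pearson correlation of 0.81, and 0.57 across the 49 genes that were not called. Across all 15341 genes it was 0.32, but their median standard error was larger (0.20, against 0.13 for the 55). How much of the contrast follows from this was not tested.

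The MCM family showed small differences in 1 direction. MCM2 to MCM7 form the ring-shaped replicative helicase, MCM8 is a related helicase of recombination and MCM10 is a replication factor that helps to activate the helicase. None of the 8 genes passed the test. All 8 had a log2 fold change below 0, from -0.34 to -0.06, with a median of -0.18, but with library totals MCM3 was at 0.02 and the other 7 remained below 0. MCM7 was the most abundant per kilobase of transcript in siCtrl, at 159 CPM per kb. Its CPM was 426, 408 and 346 in siCtrl and 376 and 358 in siFAM53C. Both siFAM53C values fell inside the range of the controls (log2 fold change -0.10, 95% interval -0.39 to 0.19). MCM8 had the lowest log2 fold change of the family. Its CPM was 46.6, 47.7 and 57.6 in siCtrl and 37.7 and 42.3 in siFAM53C. Here the conditions did not overlap (-0.34, SE 0.14, edgeR adjusted p = 0.254), and the highest control was siCtrl replicate 3. MCM6 was at 142, 145 and 122 CPM in siCtrl and at 118 and 98.4 CPM in siFAM53C (-0.33, SE 0.13, adjusted p = 0.247). For MCM2 to MCM7, siCtrl replicate 3 was below the mean of the other controls in 6 of 6 genes.

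None of the genes of the origin recognition complex, ORC1 to ORC6, passed the test either. They were below 0 in 6 of 6 with a median of -0.14, and with library totals 4 of them were (ORC2 at 0.04 and ORC3 at 0.05). The members were unequal. ORC1, the ATPase whose level follows the cell cycle, was at 39.2, 42.3 and 36.6 CPM in siCtrl and at 28.7 and 28.6 CPM in siFAM53C. Both siFAM53C libraries were below all controls, with a log2 fold change of -0.46 (SE 0.12, edgeR adjusted p = 0.0969). ORC5 was at 26.6, 31.1 and 24.0 CPM in siCtrl and at 20.3 and 19.1 CPM in siFAM53C (-0.47, SE 0.16, adjusted p = 0.185). ORC6, the most abundant per kilobase at 33.2 CPM per kb, ranged from 50.05 to 59.6 CPM in siCtrl and was at 43.3 and 49.8 CPM in siFAM53C. Its conditions touched without overlap, and its 95% interval ran from -0.50 to 0.10. For ORC2, ORC3 and ORC4 the log2 fold changes lay between -0.08 and -0.02 and the conditions overlapped.

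The 3 genes of helicase loading did not move together. CDC6 and CDT1 bring the helicase to the origin, and GMNN encodes geminin, the inhibitor that holds CDT1 in check after licensing. The CPM of GMNN was 68.0, 67.5 and 61.9 in siCtrl and 52.9 and 55.1 in siFAM53C. All siFAM53C values were lower (-0.28, SE 0.11, edgeR adjusted p = 0.230). CDC6 had a log2 fold change of -0.19 (95% interval -0.43 to 0.04), also without overlap. CDT1 was at 78.7, 77.02 and 70.4 CPM in siCtrl and at 78.3 and 90.9 CPM in siFAM53C. Its conditions overlapped, and its log2 difference was 0.01 on the side of siFAM53C replicate 1 and 0.37 on the other.

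Among CDC45 and the GINS subunits, which complete the active helicase, 4 of 5 genes were below 0 and the median was -0.35. GINS3 came nearest to the threshold of all 49 genes that were not called. It was at 32.1, 30.8 and 32.0 CPM in siCtrl and at 22.6 and 16.5 CPM in siFAM53C. The controls agreed closely and siFAM53C replicate 2 was the lower of the knock-down libraries (-0.69, SE 0.17, edgeR adjusted p = 0.0674). GINS3 passed the threshold with DESeq2 (adjusted p = 0.00979). GINS2 was at 54.5, 62.5 and 46.4 CPM in siCtrl and at 39.0 and 39.2 CPM in siFAM53C (-0.48, SE 0.14, adjusted p = 0.140). CDC45 was at 53.3, 55.1 and 54.3 CPM in siCtrl and at 37.9 and 47.5 CPM in siFAM53C. Its difference was -0.52 on the side of siFAM53C replicate 1 and -0.19 on the other (adjusted p = 0.228). GINS1 was the exception in direction, with 50.9, 54.6 and 53.5 CPM in siCtrl and 56.3 and 64.2 CPM in siFAM53C. Its log2 fold change of 0.18 had a 95% interval from -0.07 to 0.44.

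DBF4 encodes the regulatory subunit that activates CDC7, the kinase that phosphorylates the loaded helicase. Its CPM was 51.5, 51.5 and 50.9 in siCtrl and 36.4 and 36.6 in siFAM53C. The spread within each condition was under 1 CPM, and the conditions were well apart. DBF4 fell by 0.49 on the log2 scale (SE 0.10, edgeR adjusted p = 0.0465), with the smallest spread among the called genes and an adjusted p close to the threshold. It was not called with limma-voom (adjusted p = 0.0511) or with library totals (adjusted p = 0.0809). CDC7 itself was at 26.9, 27.2 and 40.7 CPM in siCtrl and at 25.1 and 27.8 CPM in siFAM53C. The high value of siCtrl replicate 3 set its mean apart, and the conditions overlapped (-0.25, 95% interval -0.73 to 0.22).

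RFC1, the large subunit of the complex that loads the PCNA clamp, was at 121, 113 and 106 CPM in siCtrl and at 77.7 and 71.1 CPM in siFAM53C. It was lower in both knock-down libraries than in any control and fell by 0.60 (SE 0.11, edgeR adjusted p = 0.0257), with -0.58 and -0.57 on the sides of the library split. The small subunits RFC2 to RFC5 had log2 fold changes from -0.28 to -0.10, none of them past the threshold. PCNA, the clamp itself and the most abundant of the 55 transcripts per kilobase (191 CPM per kb in siCtrl), was at 256, 274 and 199 CPM in siCtrl and at 253 and 224 CPM in siFAM53C. Both knock-down values lay inside the range of the controls. Its log2 fold change was -0.03 (95% interval -0.38 to 0.33), and 0.04 with library totals.

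The polymerase and primase genes had a median of -0.07 (0.00028 with library totals), and none of the 9 passed the test. PRIM2, a primase subunit that helps to make the RNA primer, had the lowest value. It was at 45.5, 45.0 and 44.3 CPM in siCtrl and at 34.5 and 35.2 CPM in siFAM53C. The conditions were apart by more than the spread within either (-0.37, SE 0.11, edgeR adjusted p = 0.121). PRIM1, the catalytic primase subunit, and POLA2, a subunit of polymerase alpha, were at -0.34 and -0.33, also without overlap. POLA1, another subunit of polymerase alpha, was at -0.07 and its conditions overlapped. Of the subunits of the polymerases that extend both strands, POLD1, POLD2, POLD3 and POLE had log2 fold changes between -0.0049 and 0.09. POLE2 was at -0.16 with the widest interval of the 55 genes (-0.76 to 0.44). Among subunits of these polymerases outside the 55, POLE3 fell by 0.94, while POLE4 and POLD4 were at 0.13 and 0.31 and were not called. POLD2, an accessory subunit of polymerase delta and the most abundant of the 9 per kilobase, was at 186, 183 and 155 CPM in siCtrl and at 198 and 175 CPM in siFAM53C.

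FEN1 and LIG1 finish Okazaki fragments on the lagging strand: FEN1 cuts the displaced flap and LIG1 seals the nick. FEN1 was at 147, 131 and 110.1 CPM in siCtrl and at 70.1 and 62.4 CPM in siFAM53C. The lowest control, siCtrl replicate 3, was still well above both knock-down libraries. FEN1 fell by 0.97 on the log2 scale (SE 0.14, edgeR adjusted p = 0.0124), with -0.99 and -0.82 on the sides of the library split. LIG1 was at 83.6, 85.4 and 88.7 CPM in siCtrl and at 99.4 and 92.8 CPM in siFAM53C. It was higher in both knock-down libraries, with a log2 fold change of 0.16 whose interval ran from -0.07 to 0.39. In the RPA complex, which coats single-stranded DNA, the log2 fold changes were 0.08 for RPA1, -0.19 for RPA2 and -0.07 for RPA3, and the conditions overlapped for all 3. RPA2, the most abundant of them per kilobase, was at 74.1, 79.4 and 62.8 CPM in siCtrl and at 61.5 and 64.9 CPM in siFAM53C.

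The genes of chromatin assembly and inheritance held the largest fall and also several of the flattest values. ATAD2, a chromatin-bound ATPase with a bromodomain that is loaded on replicated DNA, was at 180.1, 181 and 228 CPM in siCtrl and at 74.9 and 90.6 CPM in siFAM53C. Every control was above both knock-down libraries. ATAD2 fell by 1.25 on the log2 scale (SE 0.15, edgeR adjusted p = 0.00477), with -1.27 and -1.33 on the sides of the library split. UHRF1, which recognizes hemimethylated DNA behind the fork, was at 264, 239 and 257 CPM in siCtrl and at 163 and 168 CPM in siFAM53C. It fell by 0.61 (SE 0.10, adjusted p = 0.0206), with -0.62 and -0.61 on the sides. DNMT1, the maintenance methyltransferase that UHRF1 recruits, was at 354, 334 and 350.4 CPM in siCtrl and at 350.4 and 361 CPM in siFAM53C. Its conditions overlapped, with a log2 fold change of 0.04 (95% interval -0.20 to 0.28). Of the histone chaperones, CHAF1A was at -0.20 without overlap, and CHAF1B (0.01) and ASF1B (-0.06) overlapped. SLBP, which binds the stem-loop of histone mRNA, and WDR76 were at 0.05 and 0.02. The group's median was -0.02 (0.05 with library totals).

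CLSPN encodes claspin, the adaptor that relays the replication checkpoint signal to CHK1 and travels with the fork. It was at 69.4, 70.4 and 96.3 CPM in siCtrl and at 36.8 and 43.6 CPM in siFAM53C. As with ATAD2, siCtrl replicate 3 was the highest control and siFAM53C replicate 2 the higher knock-down library. CLSPN fell by 0.97 (SE 0.18, edgeR adjusted p = 0.0267), with -0.92 and -1.14 on the sides of the library split. Its partners of the fork protection complex did not pass the test. TIMELESS was at 136, 136 and 143 CPM in siCtrl and at 122 and 122 CPM in siFAM53C, without overlap (-0.18, 95% interval -0.40 to 0.04). TIPIN, one of the scarcest transcripts of the set by CPM, was at -0.32 (SE 0.19, adjusted p = 0.460).

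**Figure D3:**
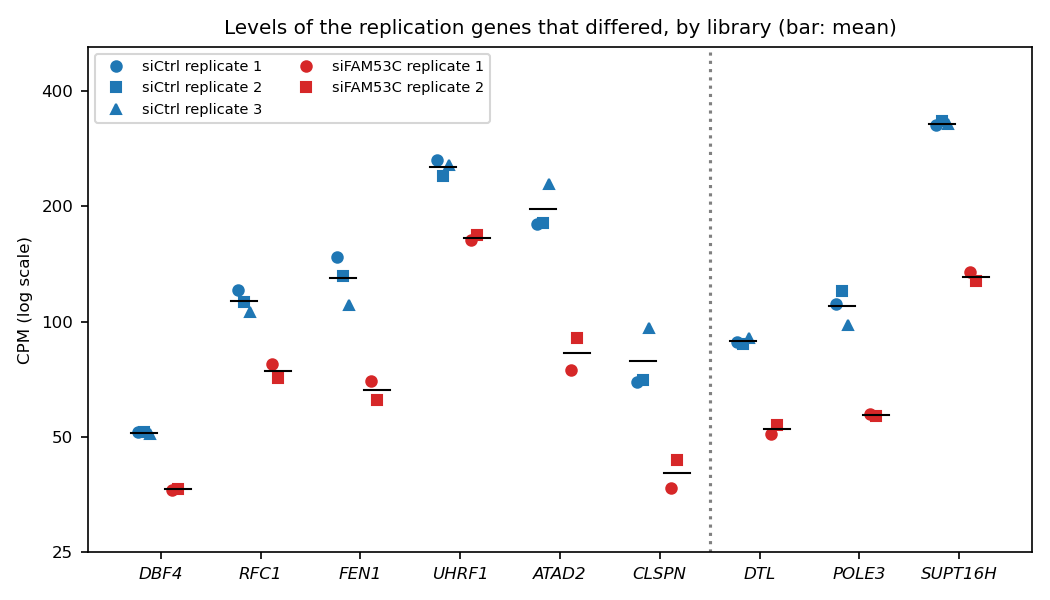
CPM in each library, on a log scale, of the 6 replication genes that fell and, right of the dotted line, of 3 further replication genes that fell. Bars are the means of 3 siCtrl and 2 siFAM53C libraries, and for each of these genes both siFAM53C libraries lie below all siCtrl libraries.

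Most of the calls were lost when a library other than siCtrl replicate 3 was left out. ATAD2 alone was called without siCtrl replicate 1, siCtrl replicate 2 or siFAM53C replicate 2. Without siFAM53C replicate 1 none of the 55 was called, and ATAD2 was at -1.12 (edgeR adjusted p = 0.0531). Without siCtrl replicate 3, 10 genes were called, the 6 among them together with GINS2, GINS3, ORC1 and POLA2. Calls over all genes moved in the same direction. With all libraries 533 genes were lower, against 886 without siCtrl replicate 3, 209 without siCtrl replicate 1 and 180 without siCtrl replicate 2. Where a call was lost, the adjusted p was from 0.0561 to 0.104 for FEN1, from 0.0717 to 0.195 for CLSPN, from 0.0847 to 0.197 for UHRF1, from 0.116 to 0.218 for RFC1 and from 0.172 to 0.289 for DBF4. Over all 5 fits that leave out 1 library, the log2 fold change ranged from -1.06 to -0.86 for FEN1, from -1.10 to -0.79 for CLSPN, from -0.67 to -0.54 for RFC1, from -0.65 to -0.58 for UHRF1 and from -0.50 to -0.49 for DBF4. A fit with 1 siFAM53C library assumes that it varies as the controls do.

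By the median of each group in each library, both siFAM53C libraries were below all 3 controls in 9 of the 11 groups, the exceptions being the polymerases and RPA. In the group of chromatin assembly the gap was under 0.01. For CDC45 and GINS, the median over the genes of log2 CPM minus its siCtrl mean was 0.01, 0.04 and 0.0027 in siCtrl and -0.47 and -0.25 in siFAM53C. For the MCM family it was 0.06, 0.07 and -0.12 in siCtrl and -0.16 and -0.18 in siFAM53C, so that siCtrl replicate 3 was nearer to the knock-down libraries than to the other controls. For the polymerases it lay between -0.02 and 0.03 in every library. The median of a group of 2 genes is the mean of both, such as FEN1 with LIG1 or DBF4 with CDC7. That of a group of 3 genes is its middle gene.

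**Figure D4:**
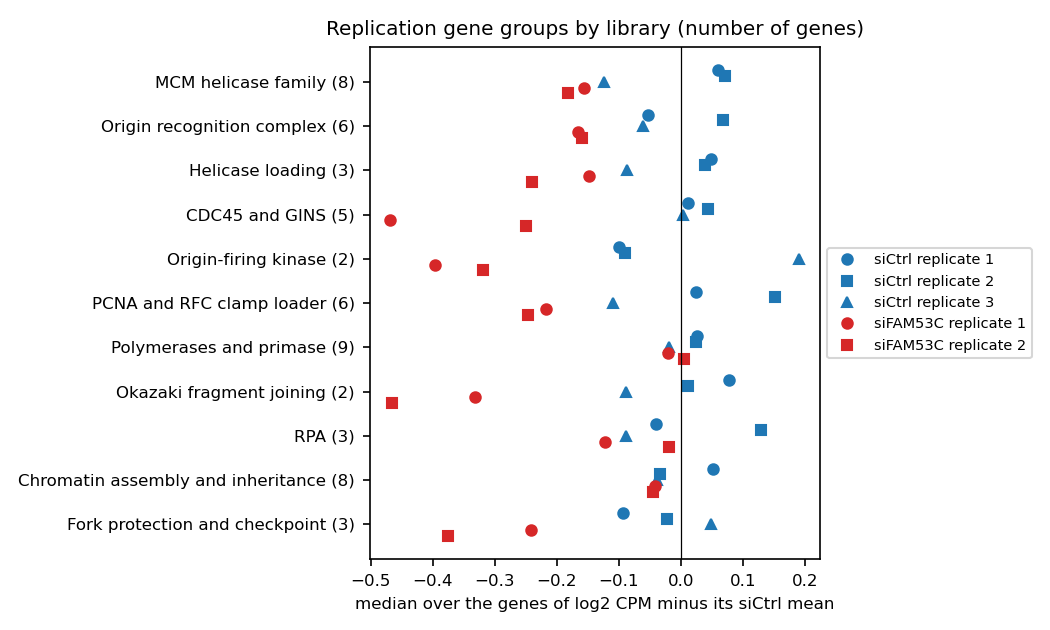
Median over the genes of each role of log2 CPM minus that gene's siCtrl mean, in each of the 5 libraries, with the number of genes in brackets. For CDC45 and GINS the siFAM53C libraries are at -0.47 and -0.25 and the controls between 0.0027 and 0.04, while for the polymerases all libraries lie between -0.02 and 0.03.

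A further 35 genes of replication outside the 55 were all tested. Of these, 3 fell and 0 were higher, where 3.47% and 0.489% of all genes were called. At an unadjusted p under 0.05, 10 of the 35 were lower, a larger share than the 10.5% of all genes, and 0 were higher, against 6.61%. Their median was -0.14, and 24 of the 35 were below 0, a larger share than the 48.2% of all genes. These shares of all genes are again not matched for standard error. SUPT16H, a subunit of the histone chaperone FACT, was at 325, 333 and 327 CPM in siCtrl and at 134 and 127 CPM in siFAM53C, and fell by 1.33 (SE 0.10, edgeR adjusted p = 0.000963). SSRP1, which encodes the other FACT subunit, was at -0.21 (SE 0.14, adjusted p = 0.524). POLE3, a histone-fold subunit of polymerase epsilon, fell by 0.94 (SE 0.12, adjusted p = 0.00613). DTL, the substrate receptor of the ubiquitin ligase that degrades CDT1 in S phase, fell by 0.76 (SE 0.10, adjusted p = 0.00699). SUPT16H was called whichever library was left out. Without siFAM53C replicate 1 or 2, POLE3 (adjusted p = 0.0655 and 0.0548) and DTL (0.0911 and 0.0558) were not, nor was DTL without siCtrl replicate 2 (0.0511). With a term for the library split, 11 of the 35 were called lower, a larger share than the 10.7% of all genes, and 0 higher, against 6.76%.

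Promoter sequences from RefSeq (GRCh38.p14), from 250 bases before to 50 bases after the annotated start, were available for 47 of the 55 genes. They were searched on both strands for 3 strings of 7 letters that match the E2F site, namely TTGGCGC and also TTCCCGC and finally TTCGCGC, of which the first and the last can overlap on opposite strands. At least 1 was present in 34 of the 47 (72.3%), in 21.4% of 10632 tested genes with a promoter entry and in 11.03% of all 35116 promoters. CCAAT occurred in 28 (59.6%), against 43.0% and 34.6%, and TTTGAA or TTTAAA, strings of the cell cycle homology region, in 4 (8.51%), against 21.5% and 24.0%. These matches are letters in a window and not shown to be bound. The 34 genes with an E2F string had a median log2 fold change of -0.22 with 3 called lower (CLSPN, RFC1 and UHRF1), and the 13 genes without had a median of -0.16 with 2 called lower (FEN1 and DBF4). The sixth, ATAD2, had no entry.

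Of the promoters, 4 are shown because their genes contrast in E2F strings and in change, each on the strand of the gene over 190 bases before the start and the 10 bases that follow, with matched letters in capitals. UHRF1 (chr19:4909311-4909510, plus strand, the most upstream of its 3 starts in the promoter table) and CLSPN (chr1:35769969-35770168, minus strand) fell and hold 2 and 1 matches. FEN1 (chr11:61792721-61792920, plus strand) fell and holds 0. MCM6 (chr2:135876434-135876633, minus strand) holds 4 and did not pass the test.
UHRF1: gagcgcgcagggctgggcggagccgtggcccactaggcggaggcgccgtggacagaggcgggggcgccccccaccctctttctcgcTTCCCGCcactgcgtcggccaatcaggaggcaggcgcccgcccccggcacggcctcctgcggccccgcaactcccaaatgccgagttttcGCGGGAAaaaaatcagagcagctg
CLSPN: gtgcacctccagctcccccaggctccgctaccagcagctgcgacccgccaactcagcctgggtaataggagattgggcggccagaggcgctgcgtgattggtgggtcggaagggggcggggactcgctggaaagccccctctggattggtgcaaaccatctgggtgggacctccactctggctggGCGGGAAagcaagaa
FEN1: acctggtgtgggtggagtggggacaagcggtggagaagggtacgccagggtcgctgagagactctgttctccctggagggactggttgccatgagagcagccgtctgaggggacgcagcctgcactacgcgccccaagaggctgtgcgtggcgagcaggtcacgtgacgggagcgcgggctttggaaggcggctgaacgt
MCM6: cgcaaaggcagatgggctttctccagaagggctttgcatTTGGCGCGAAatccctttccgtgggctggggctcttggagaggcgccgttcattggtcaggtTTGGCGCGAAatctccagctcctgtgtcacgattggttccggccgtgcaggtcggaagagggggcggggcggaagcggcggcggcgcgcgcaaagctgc

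The 55 genes were also searched, in their longest annotated 3' UTR, for GACAAGA, a string of 7 letters picked out earlier in these libraries because transcripts that carry it tended to be lower in siFAM53C. It was present in 3 of 55 (5.45%), ATAD2, CLSPN and TIMELESS, against 11.6% of 12075 tested genes with an annotated 3' UTR. Thus 2 of the 6 genes that fell hold it, and FEN1, UHRF1, RFC1 and DBF4 do not. Because the string was chosen in these same libraries, this count is no separate evidence about it. Over the 52 genes without it the median log2 fold change was -0.19, 41 were below 0 and 4 were called lower. Among the further replication genes, POLE3 and LRWD1 hold it. The part of the siRNA pool in the change of any of these genes was not tested. The sites of CLSPN, which holds 2 (chr1:35735093-35735122 and chr1:35733061-35733090, minus strand), and of TIMELESS (chr12:56416606-56416635, minus strand) are shown with these letters in capitals, because the first gene fell and the second did not pass the test.
CLSPN site 1: cttctgggtctGACAAGAagaaacataacc
CLSPN site 2: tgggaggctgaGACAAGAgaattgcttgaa
TIMELESS: attcttagggtGACAAGAgtatgcggcagg

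Some counts may include reads of other transcripts. Exons of 21 of the 55 genes overlap an exon on the opposite strand, among the genes that fell ATAD2 (433 bases), CLSPN (280 bases) and DBF4 (145 bases), and whether counting used the strand is not given in the sources used here. For 10 of the 55, including DBF4, FEN1 and PCNA, a pseudogene named after the gene is annotated, which could take or give reads.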

How the data were processed

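RNA of 3 siCtrl and 2 siFAM53C libraries was sequenced as paired reads. Trimming by the authors used CutAdapt 2.10, alignment HISAT2 with hg38 and a reverse-stranded setting, and counting per gene featureCounts. The annotation release and the strand setting of counting are not given in the sources used here. The deposited table holds raw counts, between 19260124 and 25615415 per library.

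Genes passing filterByExpr (minimum count 10, minimum total 15) were fitted with edgeR 4.0.16 (TMM factors, robust quasi-likelihood fit, condition only) in R 4.3.3, with Benjamini-Hochberg adjustment over all 15341 genes and a threshold of 0.05. The study used DESeq2. CPM are TMM-scaled, log2 CPM has a prior count of 2, and intervals are 95%. The fits were tested on simulated data. Symbols, gene models and 3' UTRs came from GENCODE release 44, per-kilobase levels from canonical transcript lengths, and promoters from RefSeq (GRCh38.p14).

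Values in every library are given for each member that was called and, per group, for the member with the largest change and that with the highest level per kilobase. ORC1, GINS1, GINS2, MCM6, LIG1, CDT1, CDC7 and SSRP1 were added after their values were seen. The members, lists, heptamer and library split were chosen with earlier results of these data known. Alternatives were DESeq2 1.42.0, limma-voom 3.58.1, other scaling, filters and blocks, and leaving out each library. Sequences of genes on chromosome 8 are not shown here.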

Additional observations from a re-analysis of the deposited data

How the results depend on the processing

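With 2 siFAM53C libraries, few calls survived the loss of a library other than siCtrl replicate 3. FAM53C was called lower in every fit with a test, and was at -2.08 and -1.37 on its 2 sides of the split. Over all genes, 533 were lower and 75 higher (87.7% lower). Scaled by library totals, 415 were lower and 121 higher (77.4% lower), with DESeq2 890 and 257, without the filter on low counts 961 and 375, with the split as a term 1636 and 1037, and at an unadjusted p under 0.05 1607 and 1014. Of the 55 replication genes, the last 2 settings gave 15 and 16 lower, and of the 35 further ones 11 and 10. Leaving out 1 library at a time gave 157 to 886 genes lower and 6 to 414 higher, 0 to 10 of the 55 lower and 1 to 4 of the 35 lower. Whether replicate numbers mark shared cultures is not given in the labels, and they were not taken as pairs. Deviations of same-numbered libraries from the mean of their condition correlated at 0.17 and -0.28 by titles and at 0.17 and 0.37 by library names. The deviations of the 2 siFAM53C libraries mirror each other, so these correlations are not separate checks of pairing. With a replicate block by titles, 856 genes were lower and 355 higher and 9 of the 55 were lower. With the replicate block by names of libraries these were 1350, 642 and 11, and 7 of the 35 were lower. No member was called higher in any fit. PCNA had a log2 fold change of 0.044 with library totals, 0.073 with the latter replicate block and 0.0325 with the split term, and -0.145 to 0.066 with 1 library left out. POLD2 was at -0.0050 to 0.18 in those fits. For these reversals the cause was not tested. edgeR without robust estimation, added after seeing the data, called the same 6 members.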
